A study of Homo sapiens with 6 samples.

Results

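The genes described here are 10 members of the cadherin switch and of the epithelial to mesenchymal transition (EMT), found as all probes of the array whose gene symbol was that of a member. They are the epithelial genes CDH1, CDH3 and EPCAM, the mesenchymal genes CDH2, CDH11 and VIM, and the EMT transcription factors SNAI1, SNAI2, ZEB1 and ZEB2. Each had 1 probe among the 24526 of the array, which named 16922 genes. Transcripts were measured on Illumina bead arrays in the human embryonic stem cell line HES3 after 3 days of Activin A at 50 ng/ml with BMP4 at 50 ng/ml (3 arrays) or of Activin A at 50 ng/ml without it (3 arrays). Both treatments followed 2 days on fibronectin. Because the protocol text of the labels lists BMP4 for all samples, the treatments were told apart by the sample titles. Activin A signals through the receptors of Nodal, and BMP4 is a bone morphogenetic protein. All cells had been grown with FGF2 on irradiated human feeder cells, of which a strainer typically removed 90% per the labels, so the RNA can include that of remaining feeders.

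Cadherins hold cells together by binding their like on a neighbouring cell, and through catenins they tie the junction to the actin cytoskeleton. In an EMT, as in cells that leave the primitive streak at gastrulation, E-cadherin classically gives way to N-cadherin, and transcription factors of the SNAI and ZEB families repress E-cadherin through E-box sequences in its promoter. Embryonic stem cells are an epithelium that expresses E-cadherin and EPCAM, and definitive endoderm arises from them by way of a mesendoderm stage.

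A probe counted as above background at a detection p under 0.01, and it was tested if it was above background on at least 3 of the 6 arrays. Of the 10 members, 6 were tested (CDH1, CDH3, CDH2, CDH11, VIM and SNAI2), and all 6 were above background on all arrays. The other 4, EPCAM, SNAI1, ZEB1 and ZEB2, did not pass, and their differences come from a fit of all probes with no filter. Each difference is the mean normalized log2 signal with BMP4 less that with Activin A alone, and p-values are limma values adjusted by Benjamini-Hochberg over all probes tested, with a threshold of 0.05. At that threshold 35.8% of 8186 tested genes differed, 17.6% higher and 18.1% lower with BMP4, and for 50.2% the arrays of the treatments did not overlap. Of the 6 tested members, CDH2 was higher, CDH1, CDH11, VIM and SNAI2 were lower and CDH3 did not pass.

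Arrays had 9348 to 10460 probes above background, and correlations of log2 values were at least 0.985 within treatments. The Activin A arrays lay on 1 chip and those with BMP4 on 2 others, with replicate 3 alone on the last, so a difference between treatments includes any between their chips and the 2 cannot be told apart. The series' text calls the replicates biological. All 9 tested stem cell markers were above background on every array. With BMP4, 5 of them were lower and 2 higher (median difference -0.70). That is 55.6% lower and 22.2% higher, against 18.1% and 17.6% over all genes tested. SOX2 was 9.65-fold, NANOG 2.11-fold and POU5F1 1.93-fold lower, while SALL4 was 1.54-fold and LIN28A 1.45-fold higher. L1TD1 and ZFP42 did not pass. DNMT3B was 1.63-fold lower by its brightest probe, but its other tested probe differed by -0.05 (limma adjusted p = 0.806). Those that rose or did not pass, and DNMT3B, were named after their values were seen. Of 12 tested definitive endoderm markers 9 were higher and 1 lower with BMP4 (median difference 1.02). GATA4, among the 9, was above background on no Activin A array and was tested only because it was above background with BMP4. Of the 12, 10 were above background on all 6 arrays. Both marker lists were chosen with earlier results of these data known.

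The epithelial side of the switch was lower and its mesenchymal side higher with BMP4. CDH1, which encodes E-cadherin, had deposited signals of 3615, 3340 and 3545 with BMP4, against 5533, 4452 and 5641 with Activin A alone. Every BMP4 array lay below every Activin A array. The normalized log2 level of CDH1 averaged 11.86 ± 0.04 with BMP4 and 12.28 ± 0.12 with Activin A (SD, n = 3 each), a log2 difference of -0.42 ± 0.10 SE (1.34-fold lower, limma adjusted p = 0.0134). The probe stayed far above background in both treatments. The median stem cell marker differed by -0.70 on the same arrays, and its part in the fall of CDH1 was not tested. In bulk RNA such as this, fewer cells of a type and less RNA per cell cannot be told apart. Among all tested genes 67.1% had a smaller difference in size, and the signed difference was above that of 16.3%.

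CDH2, which encodes N-cadherin, had signals of 11435, 12019 and 13485 with BMP4, against 9165, 6528 and 8251 with Activin A alone. The groups did not overlap, and the lowest BMP4 array exceeded the highest Activin A array. Its log2 level averaged 13.63 ± 0.11 with BMP4 and 12.89 ± 0.14 with Activin A (SD, n = 3 each), a log2 difference of 0.75 ± 0.12 SE (1.68-fold higher, limma adjusted p = 0.00154). Among all tested genes 84.9% had a smaller difference in size, and the signed difference was above that of 93.0%.

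On each array the CDH2 value minus the CDH1 value was set against its mean over the Activin A arrays, which compares changes and not levels of different probes. It was 1.00, 1.24 and 1.27 with BMP4, against 0.12, -0.06 and -0.07 with Activin A. The BMP4 arrays averaged 1.17 ± 0.15, a 2.25-fold shift of the ratio, with a spread of 0.11 (SD, n = 3) among the Activin A arrays. The plot of CDH1 against CDH2 shows that each BMP4 array held both less CDH1 and more CDH2 than any Activin A array. Without the BMP4 array of the last chip, CDH1 differed by -0.40 and CDH2 by 0.70 (limma adjusted p = 0.0338 and 0.00640).

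**Figure D1:**
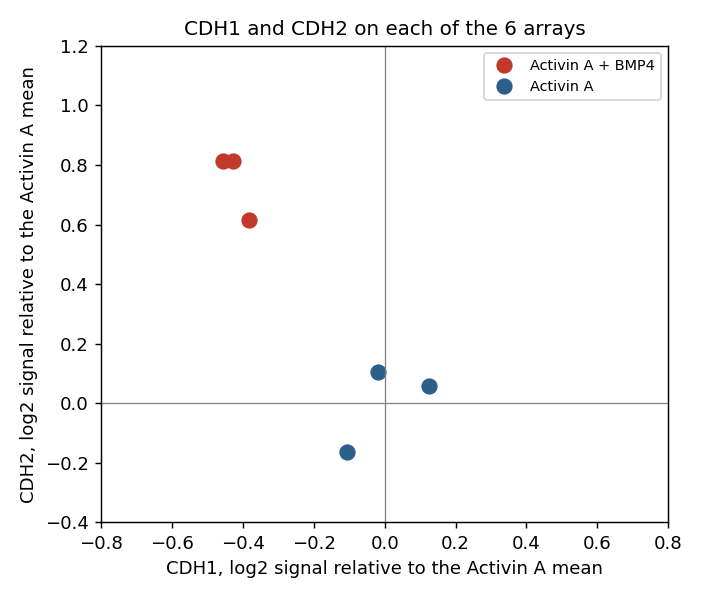
Normalized log2 signal of CDH1 (x axis) and CDH2 (y axis) on each of the 6 arrays, each gene relative to its own mean over the Activin A arrays; red points are Activin A + BMP4, blue points Activin A. The 3 BMP4 arrays sit to the upper left of the 3 Activin A arrays, with no overlap on either axis.

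The other epithelial members did not follow CDH1 past the threshold. CDH3, which encodes P-cadherin, a classical cadherin of epithelia, had signals of 1707, 1431 and 1763 with BMP4, against 2130, 1757 and 2079 with Activin A. On the normalized scale its BMP4 arrays were all below its Activin A arrays, but by little. The log2 level averaged 10.75 ± 0.09 with BMP4 and 10.89 ± 0.05 with Activin A (SD, n = 3 each), a log2 difference of -0.14 ± 0.10 SE with a 95% interval of -0.37 to 0.09 (limma adjusted p = 0.331). In this fit a fall as large as the point estimate of CDH1 lay outside the interval. The comparison depended on the normalization. With median scaling CDH3 differed by -0.28 ± 0.13 SE and CDH1 by -0.56. With the authors' processed values CDH3 differed by -0.27 ± 0.13 SE and CDH1 by -0.55. Whether CDH1 and CDH3 differed in their response was not tested.

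EPCAM, an adhesion molecule used as a surface marker of epithelia and stem cells, was near background on this array. Its probe had signals of 1.9, 13 and 73.8 with BMP4, against 7.1, 36.5 and 44.7 with Activin A. It was above background on 1 of 3 BMP4 arrays, replicate 3, and on none of the Activin A arrays, and the spread within treatments was larger than the difference between them. The log2 difference was -0.12 with a 95% interval of -1.01 to 0.76 (limma with no filter, adjusted p = 0.911), so neither a rise nor a fall of EPCAM was detectable. The probe goes against the textbook level of EPCAM in stem cells. What it reads was not tested.

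The mesenchymal members other than CDH2 were lower with BMP4. CDH11, an osteoblast cadherin that fibroblasts also carry, had signals of 211, 273 and 287 with BMP4, against 676, 536 and 412 with Activin A. The highest BMP4 array was below the lowest Activin A array. The log2 level averaged 8.09 ± 0.19 with BMP4 and 9.07 ± 0.28 with Activin A (SD, n = 3 each), a log2 difference of -0.98 ± 0.16 SE (1.97-fold lower, limma adjusted p = 0.00209). CDH2 and CDH11, both cadherins counted as mesenchymal, therefore moved in opposite directions on the same arrays. The median fibroblast marker differed by -1.27 on these arrays.

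VIM, which encodes the intermediate filament protein vimentin, had signals of 3042, 2291 and 4071 with BMP4, against 7367, 6368 and 5585 with Activin A. The groups did not overlap, although the BMP4 arrays spread more widely than those with Activin A, with replicate 3 the highest of them. The log2 level averaged 11.66 ± 0.36 with BMP4 and 12.58 ± 0.17 with Activin A (SD, n = 3 each), a log2 difference of -0.92 ± 0.18 SE (1.90-fold lower, limma adjusted p = 0.00505). Without that array the difference was -1.10, and without BMP4 replicate 2, the lowest, it was -0.74. Vimentin is made by fibroblasts as well as by stem cells and mesoderm.

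**Figure D2:**
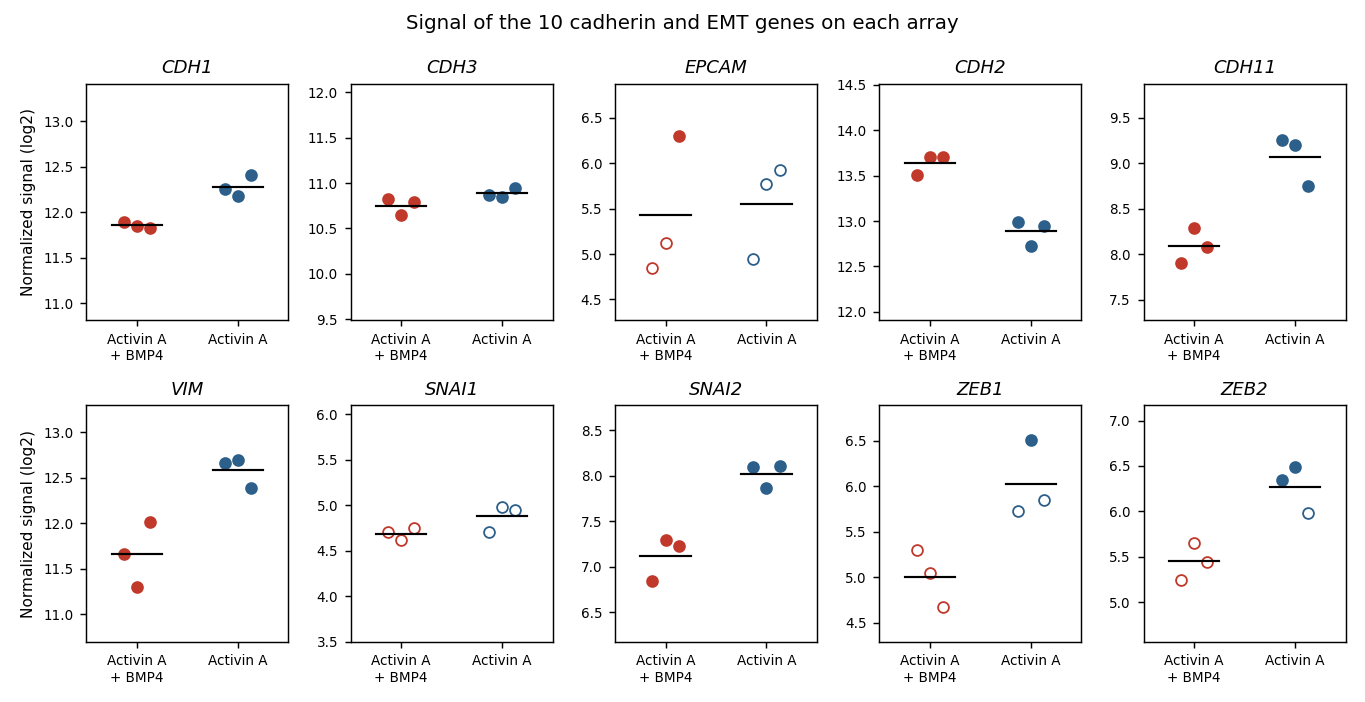
Normalized log2 signal (y axis; every panel spans the same log2 range, centred on its gene) of the 10 members on the 3 Activin A + BMP4 arrays (red, left) and the 3 Activin A arrays (blue, right); bars are means and open points are arrays on which the probe was not above background. CDH2 lies higher with BMP4, while CDH1, CDH11, VIM and SNAI2 lie lower, and EPCAM and SNAI1 overlap.

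Of the EMT transcription factors, SNAI2 alone passed the detection filter, and it was lower with BMP4. SNAI2, the zinc finger repressor also called Slug, was above background on all arrays, with signals of 92.2, 129 and 154 with BMP4, against 288, 201 and 253 with Activin A. All BMP4 arrays were below all Activin A arrays. Its log2 level averaged 7.12 ± 0.24 with BMP4 and 8.02 ± 0.14 with Activin A (SD, n = 3 each), a log2 difference of -0.90 ± 0.14 SE (1.87-fold lower, limma adjusted p = 0.00171). SNAI1, the Snail repressor of E-cadherin, was above background on no array. Its signals were -6.3, -13.4 and -3.4 with BMP4, against -5.6, 8.7 and 7.9 with Activin A. No level and no change of SNAI1 could be read from this probe (limma with no filter, adjusted p = 0.379).

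ZEB1, a zinc finger and homeodomain repressor of E-cadherin, had signals of 20.1, 9.8 and -8.2 with BMP4, against 40.3, 69.2 and 41.6 with Activin A. It was above background on none of the BMP4 arrays and on 1 of 3 Activin A arrays, so it has only a bound with BMP4, and that bound gives no fold. In the fit with no filter ZEB1 was lower by a log2 difference of -1.02 ± 0.23 SE (limma adjusted p = 0.0200). That call was lost without BMP4 replicate 2 or 3 (limma adjusted p = 0.0568 and 0.0661) and with no background correction (limma adjusted p = 0.296).

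ZEB2, its paralogue, had signals of 18.4, 31.6 and 30.1 with BMP4, against 71.8, 67.8 and 47.1 with Activin A. It was above background on none of the BMP4 arrays and on 2 of 3 Activin A arrays. Its arrays did not overlap, and the bound was 1.16-fold lower with BMP4, or 1.08-fold under the normexp correction. Such a bound sets each array of the treatment with none above background at the lowest normalized value of any probe above background. Where the probe's own value is higher, that value is kept. The Activin A arrays kept their own values, also replicate 3, on which ZEB2 was not above background, so the bound is not strict. In the fit with no filter the log2 difference was -0.82 ± 0.16 SE (limma adjusted p = 0.0107), and with no background correction that call was lost too (limma adjusted p = 0.0766). Both genes were lower with BMP4 in each of the 10 alternatives to that fit. Among them, the filter at a detection p under 0.05 could not change the differences.

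**Figure D3:**
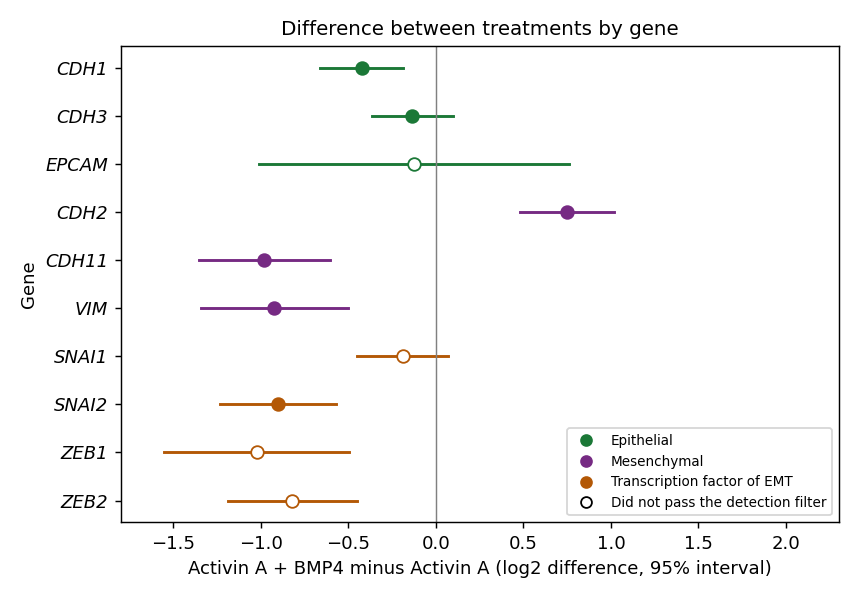
Log2 difference, Activin A + BMP4 minus Activin A (x axis), with 95% interval from limma for each member, by role: epithelial (green), mesenchymal (purple) and EMT transcription factor (orange); open points did not pass the detection filter and come from the fit with no filter. CDH2 is the member whose interval lies above 0, while those of CDH3, EPCAM and SNAI1 span 0.

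SNAI and ZEB factors bind the E-box CAGGTG, so the 250 bases before annotated transcription starts of members were searched for it on both strands. RefSeq windows on GRCh38.p14 were at hand for 4 of the 10 members, with 2 starts for CDH2, 1 for VIM, 7 for ZEB1 and 1 for ZEB2. CDH1, CDH3, CDH11, EPCAM, SNAI1 and SNAI2 are named only. Of all 35116 such windows 17.5% held the motif, as did 2 of the 7 ZEB1 windows and none of those of CDH2, VIM and ZEB2. The most upstream window of CDH2, the member that rose, and those of VIM, ZEB1 and ZEB2 are shown 5′ to 3′ on the strand of the gene, in lower case, with the E-box in capitals. They lie at chr18:28177131-28177380 (minus strand), chr10:17227991-17228240 (plus), chr10:31318167-31318416 (plus) and chr2:144520120-144520369 (minus).
CDH2: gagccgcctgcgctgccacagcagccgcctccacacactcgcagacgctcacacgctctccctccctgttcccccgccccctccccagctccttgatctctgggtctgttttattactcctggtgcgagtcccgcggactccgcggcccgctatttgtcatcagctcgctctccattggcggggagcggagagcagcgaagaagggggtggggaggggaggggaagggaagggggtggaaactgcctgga
VIM: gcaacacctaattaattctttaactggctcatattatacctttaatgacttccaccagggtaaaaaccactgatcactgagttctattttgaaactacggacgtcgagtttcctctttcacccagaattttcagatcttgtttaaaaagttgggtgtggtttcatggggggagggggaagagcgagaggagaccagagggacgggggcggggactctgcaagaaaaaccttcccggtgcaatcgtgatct
ZEB1: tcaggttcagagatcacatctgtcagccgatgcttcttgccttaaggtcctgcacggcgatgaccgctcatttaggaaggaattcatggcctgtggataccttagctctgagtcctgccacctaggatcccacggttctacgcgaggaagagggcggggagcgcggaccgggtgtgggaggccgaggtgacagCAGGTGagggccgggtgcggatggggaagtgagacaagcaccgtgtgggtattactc
ZEB2: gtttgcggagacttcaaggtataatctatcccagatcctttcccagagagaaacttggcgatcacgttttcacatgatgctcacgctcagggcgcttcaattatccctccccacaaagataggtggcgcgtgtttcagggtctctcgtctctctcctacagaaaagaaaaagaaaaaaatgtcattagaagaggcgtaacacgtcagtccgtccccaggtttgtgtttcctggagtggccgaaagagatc
The ZEB1 match begins 57 bases before its start. The CDH2 window is the richest of the 4 in G and C, at 66.0%, against 46.0% for VIM, 59.2% for ZEB1 and 48.0% for ZEB2, and the median over all windows was 58.0%. A match is a description of letters and not of binding.

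Partners of the cadherins at the junction did not move as a block. Of 16 genes of the cadherin and catenin complex, 15 had a probe and 10 were tested: 2 rose, 3 fell and 5 did not pass (median difference 0.30, against 0.00193 over all genes tested). That is 20.0% higher and 30.0% lower, against 17.6% and 18.1% over all genes, shares near the background for so few genes. JUP, which encodes plakoglobin, a catenin of adherens junctions and desmosomes, had signals of 1733 to 1798 with BMP4, against 850 to 1003 with Activin A, and was 2.00-fold higher (limma adjusted p = 1.23e-04). NECTIN2, a nectin of adherens junctions, was 1.32-fold higher. VCL, the actin linker vinculin, was 1.67-fold lower, and CTNNA1, alpha-catenin, was 1.32-fold lower (limma adjusted p = 0.0123), a size like that of CDH1. CTNNB1, beta-catenin, and CTNND1, p120-catenin, differed by 0.30 and 0.41 and did not pass (limma adjusted p = 0.123 and 0.0578). These last were named after their values were seen. Of 17 other cadherins with a probe, 13 were above background on no array, 3 on 1 or 2 arrays and 1, CDH15, on 3 or more, so CDH1, CDH2, CDH3 and CDH11 were the cadherins of these lists that the arrays could compare apart from CDH15 (log2 difference 0.11, limma adjusted p = 0.660).

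Epithelial genes beyond the members rose more often than they fell. Of 40 in the list, 21 were tested, and 7 of these rose, 2 fell and 12 did not pass (median difference 0.18). That is 33.3% higher, against 17.6% over all genes, on a list chosen with earlier results of these data known. The count of higher genes was 3 without BMP4 replicate 2 and 4 without BMP4 replicate 3. KRT19, a keratin of simple epithelia, had signals of 1924 to 2293 with BMP4, against 575 to 997 with Activin A, and was 2.69-fold higher (limma adjusted p = 2.44e-04). PRSS8, a membrane protease of epithelia, was 1.77-fold and KRT8, another simple keratin, 1.76-fold higher. KRT18, also a simple keratin, differed by 0.31 by its brightest probe and did not pass (limma adjusted p = 0.275). Its other tested probe differed by -0.10 (limma adjusted p = 0.729). ELF3, an epithelial ETS factor, was above background on no Activin A array and at least 1.62-fold higher (1.32-fold under normexp). It was tested only because it was above background with BMP4, and 6 epithelial genes were higher among those above background on all 6 arrays. CD24 and MAL2, the 2 that fell, were 1.63-fold and 1.49-fold lower. OVOL2 and GRHL2, factors that hold the epithelial state, differed by -0.04 and -0.05 and did not pass (limma adjusted p = 0.778 and 0.873). KRT18, CD24, MAL2, OVOL2 and GRHL2 were named after their values were seen. CDH1 thus fell on arrays where several other epithelial transcripts rose.

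Mesenchymal genes beyond the members were mostly lower. Of 30 in the list, 22 were tested, and 15 of these fell, 2 rose and 5 did not pass (median difference -0.69). That is 68.2% lower, against 18.1% over all genes, on a list also chosen with earlier results of these data known. PRRX1, a homeobox factor of mesenchyme, had signals of 170 to 226 with BMP4, against 924 to 980 with Activin A, and was 4.46-fold lower (limma adjusted p = 2.10e-05). ACTA2, smooth muscle actin, and WNT5A, a Wnt ligand, were both 3.61-fold lower, and S100A4, a calcium-binding protein also called FSP1, was 2.89-fold lower. TWIST1, an EMT factor of the bHLH family, was 1.54-fold lower, and FN1, fibronectin, was 1.69-fold lower. GSC, the goosecoid factor of the organizer, and ITGA5, the fibronectin receptor chain, were the 2 that rose, 2.11-fold and 2.00-fold. TWIST1, FN1, GSC and ITGA5 were named after their values were seen. The list shares 5 genes with the fibroblast list, and without them 11 of 18 tested genes were lower and 2 higher (median -0.64).

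Fibroblast markers moved in the same direction as CDH11, VIM, SNAI2 and the mesenchymal list. Of 27 fibroblast genes with a probe, 24 were tested, and 18 of these fell, 4 rose and 2 did not pass (median difference -1.27). Over all genes tested, 18.1% were lower and 17.6% higher. The fibroblast list too was chosen with earlier results of these data known. The normalized signals of the 24 fibroblast genes summed to 58892 to 61595 on the BMP4 arrays, against 97415 to 110584 on the Activin A arrays. COL1A1, COL1A2, COL3A1, DCN, THY1 and PDGFRB were above background on all arrays, and LUM on 1 of 3 BMP4 arrays and all Activin A arrays. The differences of these 7 markers ran from -1.02 for LUM (limma adjusted p = 0.0455, with overlapping arrays) to -2.17 for THY1 (limma adjusted p = 6.45e-06), and DCN was 4.19-fold, COL3A1 3.99-fold and COL1A1 3.57-fold lower. The 4 that rose were COL5A2 (2.27-fold higher, limma adjusted p = 3.27e-04), CCL2 (2.12-fold), FBLN1 (1.37-fold by its brightest probe) and COL5A1 (1.29-fold), named after their values were seen, so the 24 differences spanned -2.20 to 1.19. The other tested probes of FBLN1 differed by 0.86 (limma adjusted p = 0.00114) and by -0.05, which did not pass (limma adjusted p = 0.755). POSTN, FBN1 and DPT were above background on no array. CDH11, VIM and SNAI2 fell by 0.98, 0.92 and 0.90 on the log2 scale, less than the median marker did, and the part of feeder cells in their falls was not tested. CDH2, which fibroblasts also carry, rose on these same arrays.

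**Figure D4:**
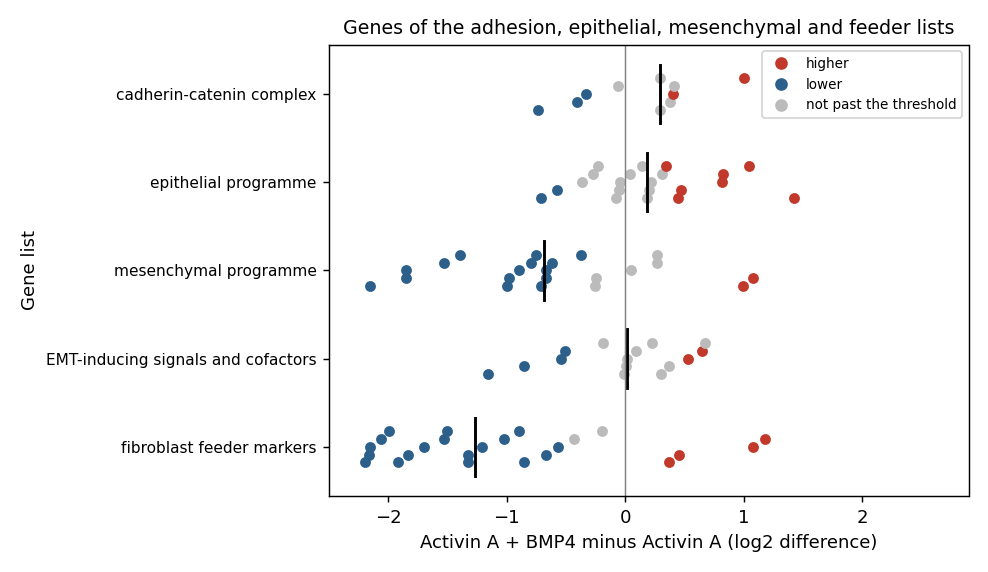
Log2 difference, Activin A + BMP4 minus Activin A (x axis), of each tested gene of 5 lists (rows); red points were higher and blue points lower at a limma adjusted p under 0.05, grey points did not pass, and black bars are medians. The mesenchymal and fibroblast medians lie at -0.69 and -1.27, and the epithelial median at 0.18.

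Signals that drive or carry out EMT showed no common direction. Of 28 ligands, receptors, SMADs and cofactors, 15 were tested, and 2 of these rose, 4 fell and 9 did not pass (median difference 0.02). That is 13.3% higher and 26.7% lower, against 17.6% and 18.1% over all genes, shares near the background for a list of this size. TGFBR2, a receptor of the EMT inducer TGF-beta, had signals of 259 to 314 with BMP4, against 557 to 800 with Activin A, and was 2.23-fold lower (limma adjusted p = 1.47e-04). ADAM15, a membrane protease of a family that sheds cadherins, was 1.81-fold lower, and GSK3B, a kinase that marks Snail for breakdown, was 1.45-fold lower. CTBP1, a corepressor of ZEB factors, was 1.57-fold higher by its brightest probe (limma adjusted p = 0.0101), while its other 2 tested probes differed by 0.07 and 0.01 and did not pass (limma adjusted p = 0.835 and 0.940). The number higher in this list ran from 1 to 5 over the settings tried.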

How the data were processed

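RNA of HES3 cells was hybridised as biotin-labelled cRNA to Illumina bead arrays, 3 per treatment, per the labels' protocols. The deposited signals are intensity values that the file headers call non-normalized, with background already subtracted (22.2% to 24.6% were negative). The deposited detection score was read as 1 minus a p-value, since it neared 1 for bright probes. The authors' processed log2 values had array medians of 0.114, 0.147 and -0.147 with BMP4 and -0.131, 0.140 and 0.0915 with Activin A; for 6507 probes with signals above 100 they tracked the log2 signals up to a constant per probe and per array (largest residual 1.20e-06). Their centring baseline is unknown.

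Signals were corrected and quantile-normalized with neqc (offset 16) in limma 3.58.1 under R 4.3.3, and 10116 of 24526 probes passed the detection filter. In the platform annotation 21834 probes had 1 symbol, 0 several and 2692 none. For 21813 probes a current symbol was found through RefSeq gene IDs and used. The brightest tested probe stood for a gene. Treatments were compared with lmFit and eBayes, two-sided. Array number limits the precision.

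Members and lists were chosen with earlier results of these data known. Named genes are all 10 members, of each other list up to 4 called genes by size of difference, and 7 fibroblast markers. The fit was tested on simulated data. Alternatives varied background correction, normalization, filter, probe choice, blocks, moderation and arrays. Arrays that share a replicate number did not deviate together (correlations 0.0346, -0.0289 and -0.0504), and the main fit did not pair them. Correlations of so few arrays cannot show whether the experiment was paired.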

Additional observations from a re-analysis of the deposited data

How the results depend on the processing

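CDH1, CDH2, CDH3, CDH11, VIM and SNAI2 kept their direction and their side of the threshold under 18 other settings of processing, with log2 differences of -0.56 to -0.36 for CDH1 (limma adjusted p at most 0.0485, without Activin A replicate 3), 0.64 to 0.82 for CDH2, -0.28 to -0.08 for CDH3, -1.13 to -0.84 for CDH11, -1.10 to -0.74 for VIM and -0.99 to -0.67 for SNAI2. The CDH2 minus CDH1 change was 1.11 to 1.26. Changes of filter, probe choice and moderation and the replicate block left these differences as they were by construction. Those settings could move only the p-values. Genes called numbered 1008 to 1652 higher and 1078 to 1658 lower. With the replicate block, which treats arrays of the same replicate number as paired, CDH1 gave a limma adjusted p of 0.0323 and CDH2 0.00639. In that fit 1369 genes were higher and 1358 lower. With the chip as a random block (correlation 0.0149) these were 1407 and 1458. No chip held both treatments, so this block cannot show whether chips differed between the treatments. Members lower were 4, or 6 with no filter and with detection p under 0.05 on 3 arrays, which let in ZEB1 and ZEB2.

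Small list counts moved. Higher genes of the EMT signal list were 5 under normexp and with trend and robust moderation, 4 with detection on all 6 arrays or at p under 0.05, and 1 with median scaling and the authors' values. With median scaling and the authors' values the catenin list had 1 higher gene and the fibroblast list 2. Other cadherins had 2 higher with no filter and 1 with detection p under 0.05. Leaving out 1 array gave 3 to 6 epithelial genes higher, 1 to 2 of the catenin list, 1 to 3 EMT signal genes and 2 to 4 fibroblast markers. The cause was not tested.

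For the 4 members under the filter, added alternatives were chosen after seeing the data. ZEB1 ranged from -2.98 with no background correction to -0.59 under normexp, and ZEB2 from -1.23 to -0.41, always lower. EPCAM turned to 0.161, 0.0245 and 0.0648 without BMP4 replicate 1, BMP4 replicate 2 or Activin A replicate 3, and SNAI1 to 0.0121 with the authors' values, in no case past the threshold. Signal over background limits these members.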
